A study of Tachysurus fulvidraco x Tachysurus vachelli with 6 samples.

Results

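The interleukin genes of the gill were followed in 6 RNA-seq libraries of juvenile hybrid yellow catfish, 3 of the untreated control group and 3 of the group that underwent 16 h of transport. All fish shared the same cross, Tachysurus fulvidraco females with P. vachellii males, and the tissue was the second gill on the left side. The labels name no other treatment, strain or age. Samples are numbered within each group, and no label states if a sample was a single fish or pooled fish. The p-values therefore set the group difference only against the spread of these libraries within groups, and that spread may be technical in part. The genes were taken by name: every gene whose first product name in the deposited annotation contained "interleukin", leaving out interleukin-1 beta copies and interleukin enhancer-binding factors. This gave 68 of 25792 genes, which comprised 19 ligands, 42 receptor chains and 7 other genes (kinases and a kinase-binding protein of the interleukin-1 receptor, and the NFIL3 transcription factors). A locus number was the only symbol for 47 of the 68, and 9 gene models carried the annotation's low-quality mark. The marked models were il17d, il17rd, il2rb, irak4, LOC113639613, LOC113641033, LOC113641537, LOC113650520 and LOC113656128. Names ending in "-like" are the annotation's, and the matching mammalian gene was not checked.

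Interleukins are secreted proteins through which leukocytes and epithelial cells instruct each other. Most bind paired receptor chains that signal through JAK kinases and STAT transcription factors, whereas the interleukin-1 family and the interleukin-17 family signal through adaptors that lead to NF-kB. In fish, the gill is a mucosal surface with its own lymphoid tissue, in which these cytokines are known to act at the border with the water. Decoy receptors bind a ligand without passing the signal on.

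The libraries held between 42962760 and 58495713 estimated counts. Of the 25792 genes, 20771 had enough counts for the test, edgeR's quasi-likelihood F test, and 64 of the 68 interleukin genes were among them. Levels are given in FPKM, fragments scaled by transcript length and library depth, which allows genes of different length to be compared, and changes as log2 fold changes, transport minus control, with a standard error (SE). A gene was called when its p, adjusted over the 20771 genes by the Benjamini-Hochberg method, was under 0.05. Skeletal muscle markers, summed, ranged from 441.97 to 2359.31 FPKM in the controls and from 319.44 to 2248.63 FPKM after transport. They were high in control replicate 1 and transport replicates 2 and 3 and low in the other libraries, so they differed within both groups. In bulk tissue, fewer cells of a type and less RNA per cell cannot be told apart.

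Interleukin genes were called in both directions after transport. Of the 64 tested, 3 rose and 4 fell, which is 10.9% against 6.69% of all tested genes. For rises alone the share over all genes was 3.23%, and for falls 3.46%. Among 17 ligands 2 rose and 1 fell, and these 3 were the 3 gene copies of interleukin-12 subunit beta. Among 40 receptor chains none rose and 3 fell, namely il17rb, an interleukin-13 receptor alpha-2 gene and an interleukin-2 receptor beta gene. For the receptor chains, 7.5% called is near the 6.69% of all genes. DESeq2, which called more genes in all (3336 of 20771), called 12 of the 40 receptor chains, all of them lower. The last called gene was an NFIL3 copy, which rose. The call of each of the 7 depended on single libraries: when control replicate 1, 2 or 3 was left out, edgeR called 9, 6 or 2 interleukin genes, and when transport replicate 1, 2 or 3 was left out it called 2, 0 or 1. All genes called in these fits numbered 1498, 941 and 379 without control replicates 1, 2 and 3. Without transport replicates 1, 2 and 3 the numbers were 399, 3 and 162. In the fit without transport replicate 2, 16 of 64 interleukin genes had an unadjusted edgeR p under 0.05, against 3550 of all 21323 genes. The 7 genes called in the main test kept the sign of their change in all 14 alternative fits.

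Without adjustment, 22 of the 64 interleukin genes had an edgeR p under 0.05, where 25% of all tested genes did, and the groups did not overlap in 28 of the 64 (43.8%, against 32.7%). The lower values were mostly those of receptor chains, a split counted after the values had been seen. At an unadjusted edgeR p under 0.05, 13 of the 40 receptor chains were lower and 2 were higher, which is 32.5% and 5% against 12.7% and 12.3% of all tested genes. Transport lay wholly below control in FPKM in 14 receptor chains, or 35% against 15% of all genes. They were apart in the upward direction in 4 receptor chains, or 10% against 17.6%. The median log2 fold change of the receptor chains was -0.17, against 0.00 over all genes, and 27 of the 40 values were negative. The count of 13 lay between 11 and 14 over the leave-one-out fits. Among the 17 ligands, 3 were higher and 2 lower at an unadjusted edgeR p under 0.05, with a median of 0.06.

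**Figure D1:**
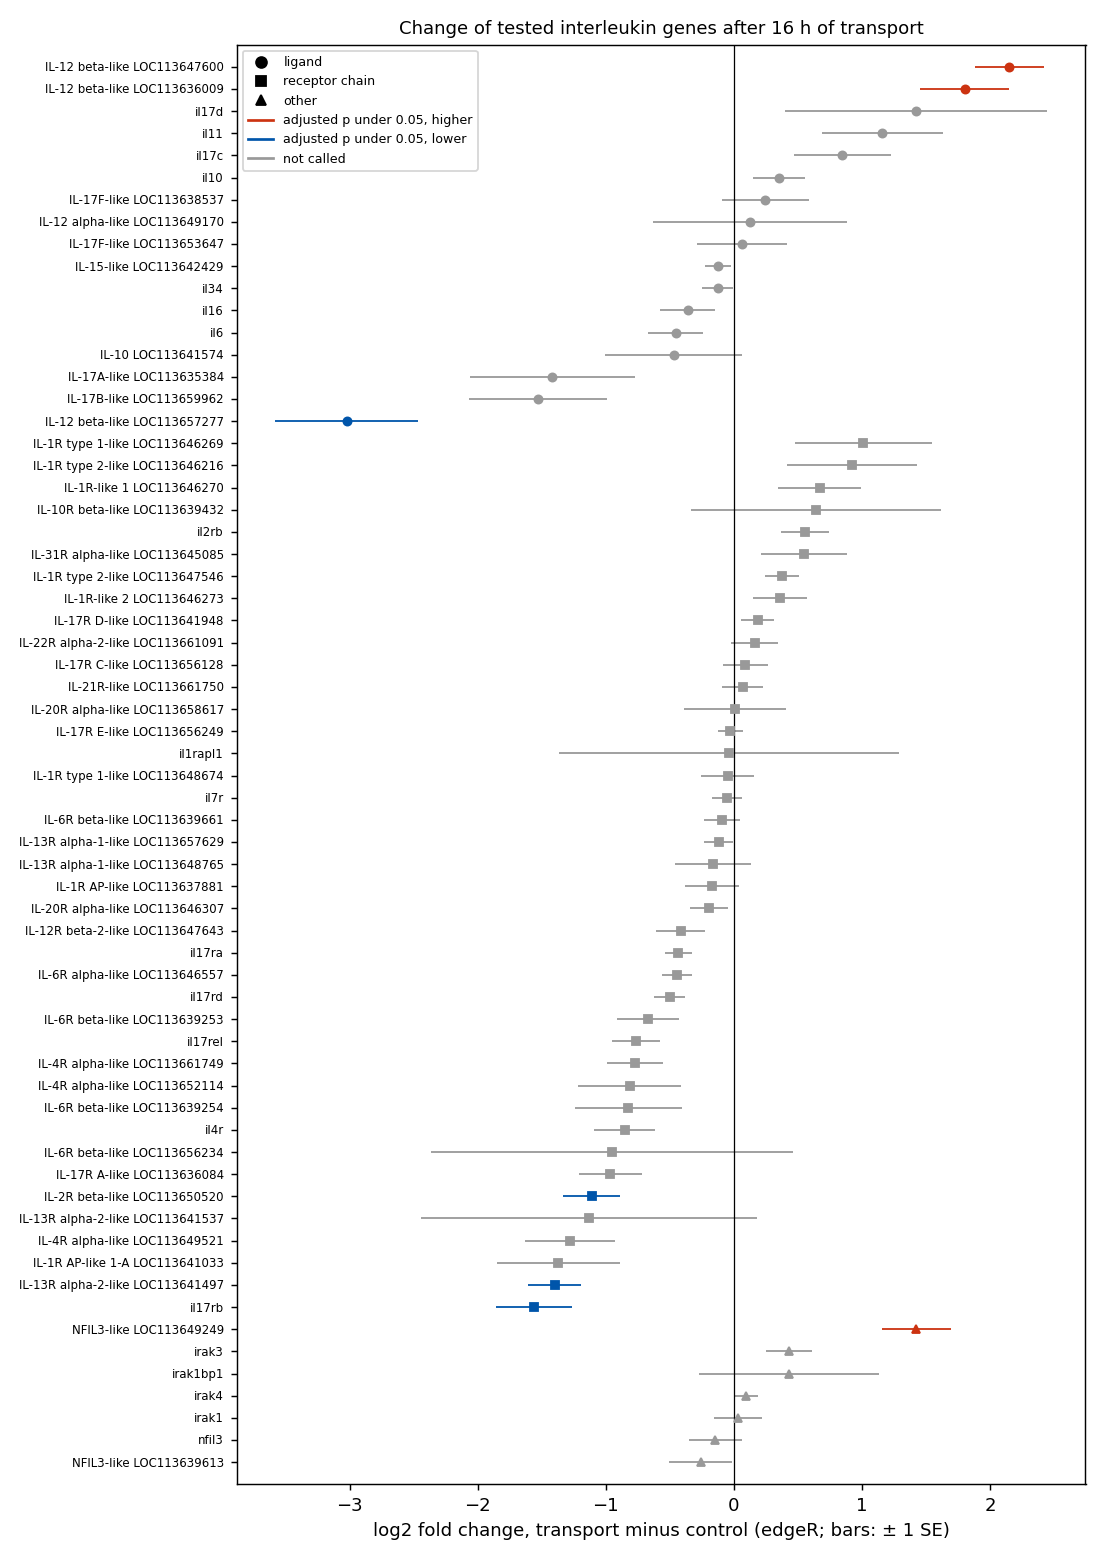
Log2 fold change of the 64 tested interleukin genes (x axis, transport minus control, edgeR) with bars of 1 SE, by class from ligands at the top to other genes at the bottom. Coloured points mark the 3 genes that rose and the 4 that fell, and 27 of the 40 receptor chains lie left of 0.

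Interleukin-12 subunit beta, known in mammals as p40, is the chain that interleukin-12 and interleukin-23 share, each pairing it with a different alpha chain. The annotation holds 3 genes with this product, on 3 scaffolds, and all were called, though not in the same direction. LOC113647600 (NW_020847824.1, 1393616 to 1397473, plus strand) stood at 4.54, 2.46 and 3.60 FPKM in the controls and at 18.83, 16.02 and 12.86 FPKM after transport. Every transport library was well above every control. It rose from 3.53 ± 1.04 to 15.9 ± 2.99 FPKM (SD, n = 3), which is a log2 fold change of 2.15 with SE 0.27 (adjusted p = 0.0125 by edgeR). Without transport replicate 2 its call was lost (edgeR adjusted p = 0.0923), and the other 5 leave-one-out fits kept it.

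LOC113636009 (NW_020848201.1, 11359405 to 11364055, plus strand) moved the same way from a lower level. Its controls were at 1.81, 0.94 and 2.50 FPKM and its transport libraries at 7.09, 5.72 and 5.84 FPKM. Again the groups were fully apart, and the rise from 1.75 ± 0.782 to 6.22 ± 0.759 FPKM gave a log2 fold change of 1.80 with SE 0.35 (adjusted p = 0.0326 by edgeR). The call was lost without control replicate 1 (edgeR adjusted p = 0.0592) and without transport replicates 1, 2 and 3 (0.0830, 0.137 and 0.110).

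The third copy, LOC113657277 (NW_020848005.1, 17957 to 22886, minus strand), went down. It stood at 2.49, 2.73 and 6.49 FPKM in the controls and at 0.34, 0.33 and 0.77 FPKM after transport. The highest transport value was below the lowest control value, although control replicate 3 was far above the other controls. The fall from 3.90 ± 2.24 to 0.480 ± 0.251 FPKM had a log2 fold change of -3.02 with SE 0.56 (adjusted p = 0.0299 by edgeR), the lowest of the 64 genes. It was not called without control replicate 3 (edgeR adjusted p = 0.0744) or without transport replicates 1, 2 and 3 (0.0803, 0.145 and 0.0714). Reads that fit more than 1 copy could have been shared between the 3 genes by the authors' counting, which these values cannot resolve.

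Summed over the 3 copies, a sum formed after their values had been seen, interleukin-12 subunit beta amounted to 8.84, 6.13 and 12.59 FPKM in the controls and 26.26, 22.07 and 19.47 FPKM after transport. The sum was higher in every transport library than in any control, and its make-up differed too. LOC113657277 contributed 41.4% ± 12 of the sum in the controls and 2.25% ± 1.48 after transport (SD, n = 3). The alpha chain of interleukin-12, LOC113649170, stood at 0.14, 0.35 and 0.40 FPKM in the controls and at 0.49, 0.18 and 0.32 FPKM after transport. Its log2 fold change was 0.13 (SE 0.76), and at this level a difference was not detectable.

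**Figure D2:**
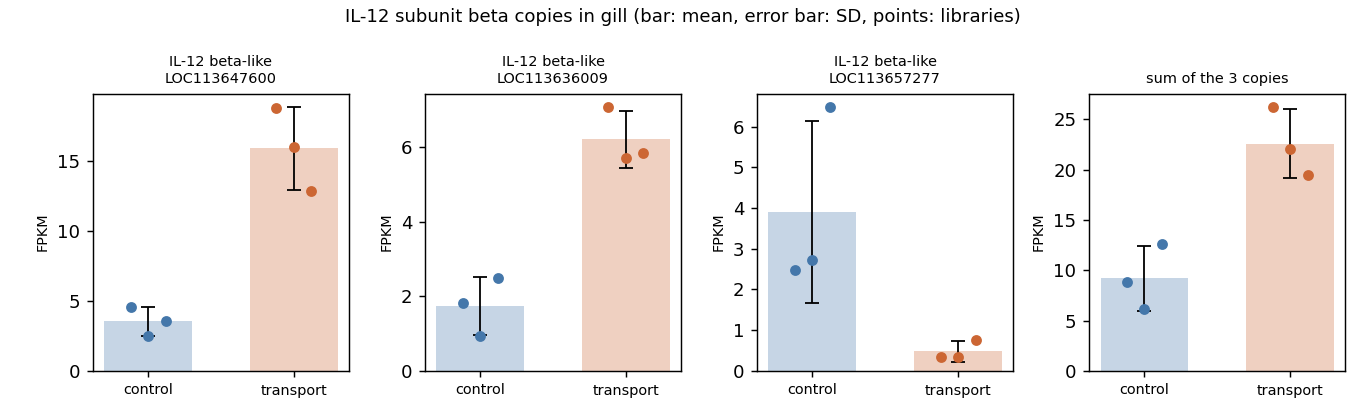
FPKM (y axis, from 0) of the 3 interleukin-12 subunit beta genes and of their sum in 3 control and 3 transport libraries, with points for libraries, bars for the mean and error bars for the SD. LOC113647600 and LOC113636009 are higher after transport, LOC113657277 is lower, and the sum is higher.

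The remaining ligands of the interleukin-6 and interleukin-12 group were not called. The gene il6, encoding the inflammatory cytokine interleukin-6, stood at 10.02, 10.89 and 7.97 FPKM in the controls and at 6.34, 6.39 and 8.58 FPKM after transport. These groups overlapped, with transport replicate 3 inside the control range, and the log2 fold change was -0.45 with SE 0.21 (adjusted p = 0.243 by edgeR). Interleukin-11, a ligand that signals through the same beta chain as interleukin-6, was low throughout. The il11 gene was at 0.36, 0.66 and 0.38 FPKM in the controls and at 1.5, 0.90 and 0.78 FPKM after transport. The groups did not overlap, but the log2 fold change of 1.16 (SE 0.47) was not called (edgeR adjusted p = 0.182).

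Interleukin-17 ligands, cytokines of mucosal defence that induce chemokines and antimicrobial peptides, had 7 genes, 6 of them tested and none called by edgeR, DESeq2 or limma. At an unadjusted edgeR p under 0.05, 1 was lower (16.7%, against 12.7% of all tested genes). Interleukin-17C, which epithelial cells themselves secrete, was measured at 2.66, 1.65 and 4.23 FPKM in the controls and at 5.64, 4.40 and 5.51 FPKM after transport. The il17c groups were apart by a narrow margin, with a log2 fold change of 0.85 with SE 0.38 (adjusted p = 0.220 by edgeR). On the low side, the interleukin-17B-like gene LOC113659962 stood at 1.85, 0.60 and 0.73 FPKM against 0.32, 0.42 and 0.34 FPKM. All its transport values were below the controls, of which replicate 1 was the highest, and its log2 fold change was -1.53 with SE 0.54 (adjusted p = 0.138 by edgeR). The interleukin-17A-like gene LOC113635384 had 1.45, 0.67 and 1.43 FPKM in the controls and 0.36, 0.58 and 0.37 FPKM after transport, likewise without overlap (log2 fold change -1.42 with SE 0.64, adjusted p = 0.227 by edgeR).

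LOC113635385, a further interleukin-17A-like gene, overlaps LOC113635384 on the opposite strand. It was listed at 0.16, 0.21 and 0.19 FPKM in the controls, from 8, 12 and 8 estimated counts, and at 0 in all 3 transport libraries, and was too low to be tested. Without a statement on strand, the reads of these overlapping genes cannot be told apart. The 2 interleukin-17F-like genes were the most abundant of the family, and both overlapped between groups. LOC113638537 was at 7.74 ± 3.15 and 9.32 ± 2.30 FPKM, and LOC113653647 at 5.06 ± 2.46 and 5.34 ± 1.08 FPKM. The gene il17d stayed between 0.06 and 0.58 FPKM, with a log2 fold change of 1.42 whose SE was 1.02.

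The most abundant ligand was il34, whose product binds the macrophage receptor CSF1R. It was measured at 17.80, 17.29 and 20.55 FPKM in the controls and at 18.13, 17.05 and 16.47 FPKM after transport, with a log2 fold change of -0.13 (SE 0.12). Next came the interleukin-15-like gene LOC113642429, encoding a survival factor of lymphocytes, at 15.4 ± 1.05 and 14.3 ± 0.596 FPKM (log2 fold change -0.12, SE 0.10). The lymphocyte attractant il16 stood at 14.79, 8.02 and 9.83 FPKM in the controls and at 8.43, 9.28 and 8 FPKM after transport. Only control replicate 1 was above the range of the other libraries there. None of these 3 was called by edgeR (adjusted p = 0.585, 0.494 and 0.352).

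Interleukin-10 restrains inflammation. The gene il10 was at 6.14, 10.33 and 8.09 FPKM in the controls and at 10.07, 11.11 and 10.67 FPKM after transport. The groups overlapped at control replicate 2, and the log2 fold change was 0.36 with SE 0.20 (adjusted p = 0.330 by edgeR). LOC113641574, also annotated as interleukin-10, lies within il10 on the opposite strand and stood at 1.32 ± 0.332 and 0.963 ± 0.490 FPKM. As strand is not stated, reads of il10 and LOC113641574 cannot be told apart where the genes overlap. An interleukin-20-like gene close by, LOC113641572, was listed at 0 in all 6 libraries.

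**Figure D3:**
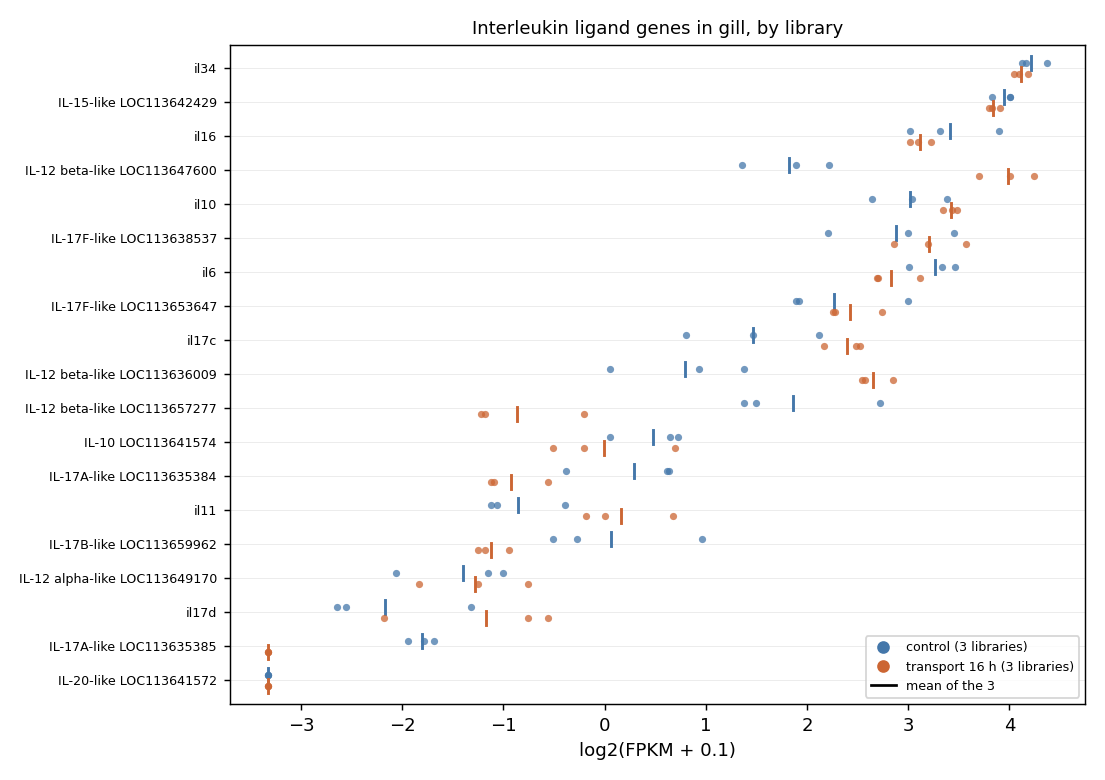
Level of the 19 ligand genes in each library, as log2(FPKM + 0.1) on the x axis, ordered by mean level, with control libraries and transport libraries as points and vertical ticks at the mean of the 3 values. The groups are far apart for the interleukin-12 subunit beta genes, while the most abundant ligands, il34 and the interleukin-15-like gene, overlap.

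Of 8 receptor chain genes of the interleukin-17 family, all tested, il17rb fell and none rose, 5 were lower at an unadjusted edgeR p under 0.05 and none was higher, and these 5 were also the ones whose groups did not overlap. That is 62.5% of the 8, against 12.7% of all tested genes lower at that p and 15% wholly lower. The grouping by family, here and for the other receptor chains, was made after the values had been seen. Interleukin-17 receptor B, in mammals the chain that binds interleukin-17B and interleukin-25, is encoded by il17rb (NW_020847974.1, 3898185 to 3908926, plus strand). It was measured at 21.23, 15.98 and 29.55 FPKM in the controls and at 9.98, 7.77 and 5.23 FPKM after transport. Every transport value was below the lowest control. It fell from 22.3 ± 6.84 to 7.66 ± 2.38 FPKM (SD, n = 3), which is a log2 fold change of -1.56 with SE 0.30 (adjusted p = 0.0317 by edgeR). The call was lost without control replicate 3 (edgeR adjusted p = 0.0811) and without transport replicates 1, 2 and 3 (0.0531, 0.148 and 0.104).

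Interleukin-17 receptor A is the chain that most receptors of this family share. The gene il17ra stood at 37.16, 44.97 and 43.39 FPKM in the controls and at 31.79, 31.84 and 30.61 FPKM after transport. The transport libraries were close together and all below the controls. The log2 fold change of -0.43 (SE 0.10) missed the threshold (edgeR adjusted p = 0.0557), and without control replicate 1 it passed (0.0252). A second gene, the interleukin-17 receptor A-like LOC113636084, had 4.16, 3.14 and 4.68 FPKM against 2.15, 2.45 and 1.62 FPKM. It too was lower in each transport library, with a log2 fold change of -0.96 with SE 0.25 (adjusted p = 0.0631 by edgeR).

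The gene il17rel, for a receptor chain similar to interleukin-17 receptor E, was at 31.13, 51.12 and 41.70 FPKM in the controls and at 26.99, 24.87 and 22.13 FPKM after transport. Its groups were apart, the log2 fold change was -0.76 with SE 0.19 (adjusted p = 0.0586 by edgeR), and without control replicate 1 it passed (0.0195). Receptor D, known in fish and mammals also as an inhibitor of fibroblast growth factor signalling, is encoded by il17rd. Its values were 26.29, 21.99 and 23.82 FPKM in the controls and 19.15, 17.30 and 15.21 FPKM after transport, again without overlap (log2 fold change -0.50 with SE 0.12, adjusted p = 0.0558 by edgeR).

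The other 3 chains of the family overlapped between groups. The receptor D-like gene LOC113641948 stood at 15.6 ± 2.23 and 18 ± 1.29 FPKM, with a log2 fold change of 0.19 (SE 0.13). The receptor E-like gene LOC113656249 was at 14.7 ± 0.500 and 14.6 ± 0.809 FPKM (log2 fold change -0.03, SE 0.10). Its neighbour on the same strand, the receptor C-like gene LOC113656128, was at 4.84 ± 0.917 and 5.22 ± 0.225 FPKM.

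**Figure D4:**
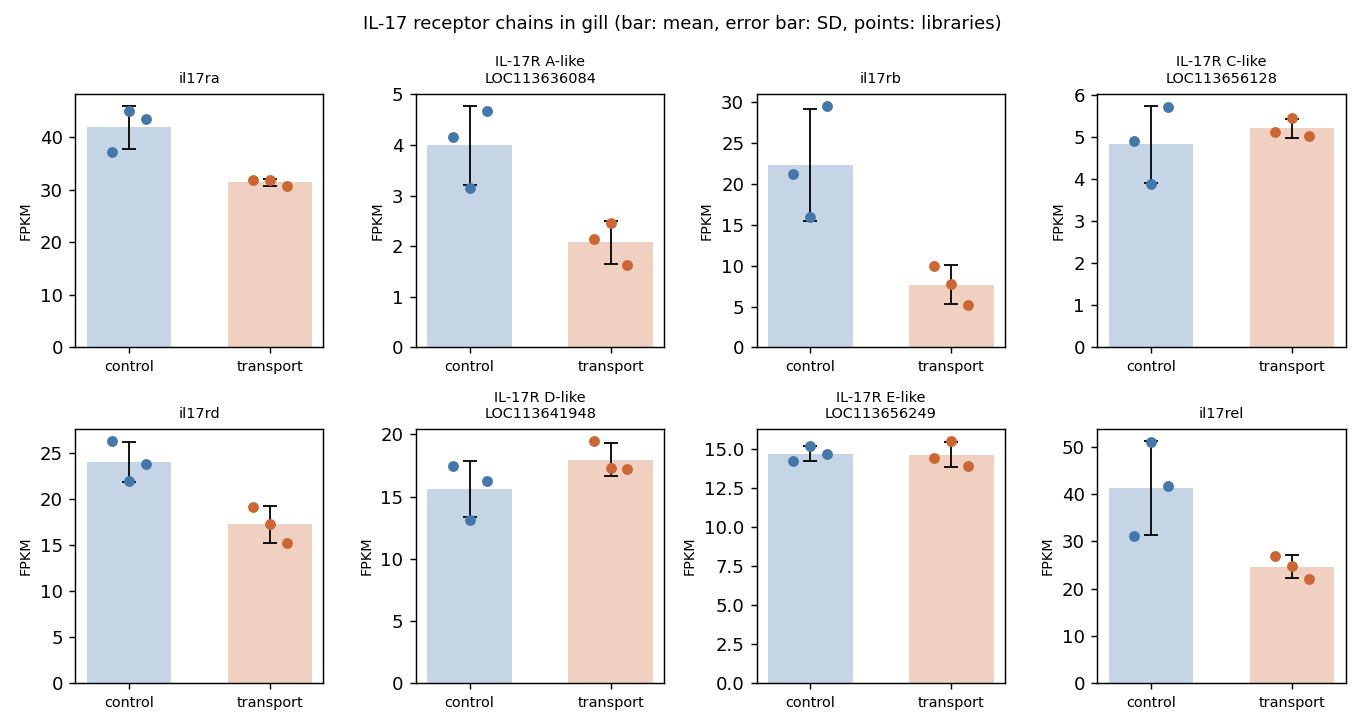
FPKM (y axis, from 0) of the 8 interleukin-17 receptor chain genes in 3 control and 3 transport libraries, with points for libraries, bars for the mean and error bars for the SD. In 5 of the 8 panels every transport library is below every control, with the widest gap for il17rb.

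Receptor chains for interleukins 2, 4, 7, 13 and 21 comprised 12 genes, of which 2 fell and none rose (16.7% called, against 6.69% of all tested genes). At an unadjusted edgeR p under 0.05, 5 were lower and 1 was higher, or 41.7% and 8.33% against 12.7% and 12.3%. The log2 fold change was negative in 10 of the 12 (median -0.79) and in 49.8% of all tested genes. Interleukin-13 receptor alpha-2 is known in mammals as a decoy that takes up interleukin-13. Its main gene, LOC113641497 (NW_020848398.1, 2015722 to 2024190, minus strand), was at 57.12, 81.20 and 73.72 FPKM in the controls and at 32.78, 28.41 and 20.34 FPKM after transport. The groups were far apart, and the mean fell from 70.7 ± 12.3 to 27.2 ± 6.31 FPKM (SD, n = 3), which is a log2 fold change of -1.40 with SE 0.21 (adjusted p = 0.0184 by edgeR). This call was lost without control replicate 3 (edgeR adjusted p = 0.0573) and without transport replicates 2 and 3 (0.109 and 0.0580). In the controls this decoy gene had the highest mean of the 42 receptor chains. The signalling chain for interleukin-13 is interleukin-13 receptor alpha-1, and the difference in change between the 2 chains was not tested. Its gene LOC113657629 stood at 52.82, 63.31 and 65.93 FPKM in the controls and at 54.35, 58.20 and 57.52 FPKM after transport (log2 fold change -0.12, SE 0.11), and LOC113648765 was at 7.46 ± 3.05 and 6.75 ± 1.02 FPKM. The second alpha-2 gene, LOC113641537, did not exceed 0.59 FPKM.

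Interleukin-4 receptor alpha is the chain that binds interleukin-4 and that both interleukin-4 and interleukin-13 use for signalling. All 4 genes with this product had negative log2 fold changes (median -0.83), against 49.8% of all tested genes. At an unadjusted edgeR p under 0.05, 3 of the 4 were lower (75%, against 12.7% of all tested genes), though none was called after adjustment. DESeq2 called these 3. The gene il4r stood at 9.64, 12.62 and 17.92 FPKM in the controls and at 8.47, 7.66 and 6.46 FPKM after transport. All transport values were below the controls (log2 fold change -0.85 with SE 0.24, adjusted p = 0.0782 by edgeR), and without control replicate 1 it was called (0.0322). LOC113661749 was at 12.99, 9.06 and 9.37 FPKM against 7.89, 5.66 and 5.12 FPKM (log2 fold change -0.77 with SE 0.22, adjusted p = 0.0837 by edgeR). LOC113649521 was at 1.92, 2.16 and 2.95 FPKM against 0.99, 0.85 and 1.08 FPKM (log2 fold change -1.28 with SE 0.35, adjusted p = 0.0760 by edgeR). Neither pair of groups overlapped. The fourth gene, LOC113652114, overlapped between groups at 1.41 ± 0.564 and 0.817 ± 0.248 FPKM.

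The 2 genes for interleukin-2 receptor beta, a signalling chain for interleukin-2 and interleukin-15 in mammals, went in opposite directions. LOC113650520 (NW_020847891.1, 491964 to 502560, minus strand) was at 6.01, 4.02 and 4.76 FPKM in the controls and at 2.31, 1.99 and 2.62 FPKM after transport. It fell from 4.93 ± 1.01 to 2.31 ± 0.315 FPKM with no overlap (log2 fold change -1.11 with SE 0.22, adjusted p = 0.0361 by edgeR). The call was lost without control replicates 1 and 3 (edgeR adjusted p = 0.0575 and 0.0921) and without transport replicates 1, 2 and 3 (0.0903, 0.168 and 0.104). The gene il2rb stood at 10.70, 7.65 and 7.20 FPKM in the controls and at 15.05, 12.18 and 10.85 FPKM after transport. Its lowest transport value barely exceeded its highest control, and the log2 fold change of 0.56 (SE 0.19) was not called (edgeR adjusted p = 0.124). Both gene models carry the low-quality mark.

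Interleukin-7 receptor alpha, a chain that T cells need to survive, was among the abundant chains. The gene il7r was at 38.29, 29.43 and 30.64 FPKM in the controls and at 32.13, 33.44 and 30.45 FPKM after transport. The transport values lay within the control range (log2 fold change -0.05, SE 0.12). The interleukin-21 receptor-like gene LOC113661750, a neighbour of LOC113661749 at a distance of 0.91 kb, was at 8.40 ± 1.26 and 8.93 ± 1.02 FPKM.

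The interleukin-6 and interleukin-12 receptor group had 8 genes, 7 of them tested, and edgeR and limma called none of them. At an unadjusted edgeR p under 0.05, 2 were lower (28.6%, against 12.7% of all tested genes) and none was higher. DESeq2 called the same 2 as lower. These were the interleukin-6 receptor alpha-like gene LOC113646557 and the beta-like gene LOC113639253. The alpha chain binds interleukin-6, and LOC113646557 stood at 13.81, 12.06 and 11.96 FPKM in the controls and at 9.70, 9.28 and 9.18 FPKM after transport. No transport library reached the control range (log2 fold change -0.44 with SE 0.12, adjusted p = 0.0672 by edgeR).

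Interleukin-6 receptor beta, known as gp130, is the signalling chain shared by interleukin-6, interleukin-11 and related cytokines, and 4 genes carried this product. LOC113639253 was at 32.57, 59.89 and 63.10 FPKM in the controls and at 34.37, 31.83 and 33.13 FPKM after transport. Control replicate 1 was within the transport range, unlike the other controls, and the log2 fold change was -0.67 with SE 0.24 (adjusted p = 0.146 by edgeR). Without control replicate 1 it became -0.93 and was called (edgeR adjusted p = 0.00868). The adjacent gene LOC113639254, on the opposite strand, was at 37.12, 36.75 and 44.50 FPKM in the controls and at 8.86, 30.52 and 28.29 FPKM after transport. Here transport replicate 1 was far below the rest, and all transport values were under the controls (log2 fold change -0.82 with SE 0.42, adjusted p = 0.278 by edgeR). LOC113639661 was at 12 ± 2.05 and 11.4 ± 0.814 FPKM, and LOC113656234 did not exceed 0.37 FPKM. The interleukin-12 receptor beta-2-like gene LOC113647643 stood at 17, 10.70 and 10.90 FPKM in the controls and at 10.18, 9.26 and 9.81 FPKM after transport. The groups did not overlap, but only control replicate 1 was clearly higher than the rest (log2 fold change -0.42 with SE 0.19, adjusted p = 0.234 by edgeR). Of the 2 interleukin-31 receptor alpha-like genes, LOC113645085 was at 0.767 ± 0.236 and 1.14 ± 0.250 FPKM, and LOC113645086, which lies within it on the opposite strand, was too low to be tested. Reads of this pair, too, cannot be told apart where the genes overlap.

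Among the interleukin-1 receptor genes 5 of 9 log2 fold changes were positive (median 0.36), with none called by edgeR, DESeq2 or limma. At an unadjusted edgeR p under 0.05 there was 1 in each direction, or 11.1%, against 12.7% lower and 12.3% higher of all tested genes. Interleukin-1 receptor type 2 is a decoy that binds interleukin-1 without signalling. Its main gene, LOC113647546, was at 26.44, 29.09 and 34.97 FPKM in the controls and at 40.21, 41.85 and 37.11 FPKM after transport. The groups were apart, with a log2 fold change of 0.38 with SE 0.14 (adjusted p = 0.142 by edgeR). The smaller type 2 gene, LOC113646216, was at 0.71, 3.11 and 1.38 FPKM and at 3.45, 3.33 and 3.25 FPKM, even across the transport libraries, uneven across the controls and without overlap (edgeR adjusted p = 0.315). The type 1-like gene LOC113646269 stood at 9.27, 3.78 and 11.10 FPKM in the controls and at 21.66, 21.36 and 6.42 FPKM after transport. Transport replicate 3 fell inside the control range, and the log2 fold change was 1.01 with SE 0.54 (adjusted p = 0.298 by edgeR). The other type 1-like gene, LOC113648674, was at 4.92 ± 0.656 and 4.83 ± 1.04 FPKM.

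Interleukin-1 receptor-like 1, in mammals the receptor of interleukin-33, was represented by LOC113646270 at 0.853 ± 0.256 and 1.38 ± 0.206 FPKM, without overlap but not called (log2 fold change 0.67 with SE 0.32, adjusted p = 0.256 by edgeR). Interleukin-1 receptor-like 2, LOC113646273, was at 3.41 ± 0.741 and 4.41 ± 0.706 FPKM. The accessory protein-like gene LOC113637881, whose namesake in mammals completes the signalling receptor, was at 2.45 ± 0.164 and 2.20 ± 0.268 FPKM. Its relatives known from neurons were nearly silent, with il1rapl1 at no more than 0.12 FPKM. LOC113641033 was at 0.32, 0.28 and 0.31 FPKM in the controls and at 0.12, 0.10 and 0.13 FPKM after transport. The groups did not overlap at this very low level, and the log2 fold change of -1.37 (SE 0.48) was not called (edgeR adjusted p = 0.135).

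Receptor genes of the interleukin-10 family numbered 5, of which 4 were tested, none was called by edgeR, DESeq2 or limma, and none had an unadjusted edgeR p under 0.05. The interleukin-22 receptor alpha-2-like gene LOC113661091, whose mammalian product is a soluble decoy for interleukin-22, was at 15.1 ± 2.91 and 17.1 ± 0.712 FPKM. The interleukin-20 receptor alpha-like gene LOC113646307 was at 11.4 ± 1.5 and 10.1 ± 1.40 FPKM. Its partner chain gene il20rb was listed at 0 in 5 libraries and was not tested. The remaining 2 genes, LOC113639432 and LOC113658617, varied more within the groups than between them.

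**Figure D5:**
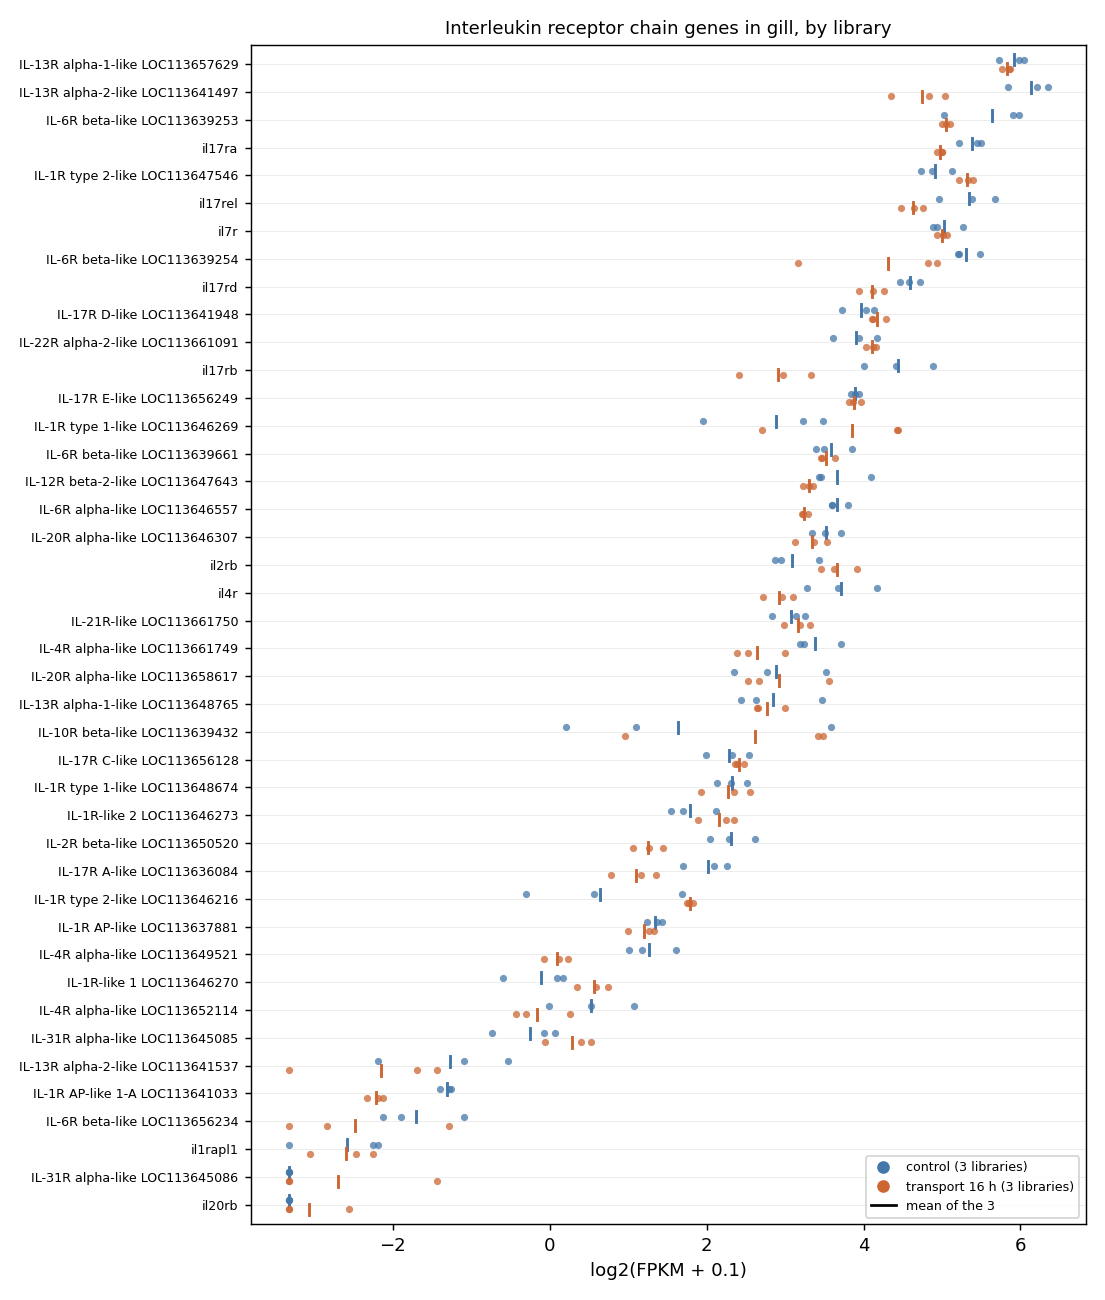
Level of the 42 receptor chain genes in each library, as log2(FPKM + 0.1) on the x axis, ordered by mean level, with control and transport libraries as points and vertical ticks at the mean of the 3 values. Transport points lie left of the control points for the interleukin-13 receptor alpha-2-like gene LOC113641497, for il17rb and for il4r, and right of them for LOC113647546.

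Among the 7 other genes, 1 was called. NFIL3, a transcription factor of the basic leucine zipper class that takes part in circadian and immune gene control, has 3 genes here. LOC113649249 (NW_020847864.1, 193929 to 199496, minus strand) was at 0.62, 0.66 and 0.69 FPKM in the controls and at 1.89, 1.6 and 1.89 FPKM after transport. The values within each group were close together and the groups did not overlap. It rose from 0.657 ± 0.0351 to 1.79 ± 0.167 FPKM, which is a log2 fold change of 1.42 with SE 0.27 (adjusted p = 0.0309 by edgeR). The call was lost without control replicates 2 and 3 (edgeR adjusted p = 0.0608 and 0.0739) and without transport replicates 1, 2 and 3 (0.0834, 0.137 and 0.122). The more abundant nfil3 was at 15.70, 26.49 and 20.70 FPKM in the controls and at 16.66, 20.18 and 20.81 FPKM after transport, and LOC113639613 at 11.7 ± 4.18 and 9.94 ± 0.187 FPKM. In both, the transport libraries lay within the control range, and control replicate 2 was highest.

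The interleukin-1 receptor-associated kinases pass the signal on from interleukin-1 and Toll-like receptors. The gene irak4, the first kinase of the chain, was at 20.30, 19.53 and 21.73 FPKM in the controls and at 22.22, 22.03 and 22.35 FPKM after transport, apart by a small margin (log2 fold change 0.10 with SE 0.10, adjusted p = 0.600 by edgeR). IRAK3 is known in mammals as the inhibitor of the chain. Its gene irak3 stood at 4.88, 3.54 and 3.94 FPKM in the controls and at 5.69, 5.11 and 6.05 FPKM after transport. The groups were apart, with a log2 fold change of 0.43 with SE 0.18 (adjusted p = 0.195 by edgeR). The gene irak1 was at 4.60 ± 0.830 and 4.76 ± 0.650 FPKM, and irak1bp1 at 0.443 ± 0.306 and 0.610 ± 0.0265 FPKM.

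Position was shared by some of these genes. The 68 genes lay on 44 scaffolds, and 19 of them had another interleukin gene within 100 kb. The largest such group was a row of 4 interleukin-1 receptor genes on NW_020847805.1, LOC113646270, LOC113646269, LOC113646273 and LOC113646216, with gaps of 0.16, 8.91 and 4.43 kb. All 4 log2 fold changes in this row were positive and none was called.

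Downstream signalling genes are given by list. Of 36 tested JAK, STAT and SOCS genes, 1 rose and 2 fell, with a median log2 fold change of -0.09 and 8.33% called against 6.69% of all genes. At an unadjusted edgeR p under 0.05, 6 were higher and 6 lower, or 16.7% each against 12.3% and 12.7% of all tested genes. DESeq2 called 10 of the 36, against 3336 of all 20771 genes. STAT4 carries the interleukin-12 signal in mammals. Its gene LOC113657016 was at 71.15, 77.82 and 70.97 FPKM in the controls and at 33.93, 35.40 and 33.57 FPKM after transport, tight within groups and far apart between them. It fell with a log2 fold change of -1.11 with SE 0.09 (adjusted p = 0.00440 by edgeR), a call lost without transport replicate 2 (0.0629). The feedback inhibitor gene LOC113639654, SOCS3-like, fell from 359.8 ± 43.4 to 225 ± 30.5 FPKM (adjusted p = 0.0360 by edgeR). Its call was lost without control replicates 2 and 3 (edgeR adjusted p = 0.0748 and 0.103) and without transport replicates 1, 2 and 3 (0.0625, 0.162 and 0.122).

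Of 32 genes of interleukin-1 receptor and NF-kB signalling, 3 of which are IRAK genes described above, 1 rose and none fell (median -0.00, 3.12% called). This was nfkbiz, a nuclear NF-kB cofactor that in mammals serves interleukin-17 and interleukin-1 target genes. It was at 85.04, 80.58 and 62.94 FPKM in the controls and at 161.41, 144.58 and 130.13 FPKM after transport, a log2 fold change of 0.91 with SE 0.14 (adjusted p = 0.0188 by edgeR). Without transport replicates 1, 2 and 3 it was not called (edgeR adjusted p = 0.0540, 0.113 and 0.0582). Of 21 tested genes known in mammals as targets of interleukins, 6 rose and 1 fell (median 0.33, 33.3% called against 6.69% of all genes). Apart from the prostaglandin G/H synthase 2-like gene LOC113642216, all rises were in collagenase 3-like or metalloproteinase-9-like genes, so related copies make up most of this share. The fall was in nos2, the most abundant gene of the list, from a mean of 256.52 to 65.92 FPKM. Its log2 fold change was -1.98 with SE 0.36 (adjusted p = 0.0289 by edgeR). The nos2 controls were uneven, at 137.42, 263.74 and 368.39 FPKM, against 80.98, 65.81 and 50.97 FPKM after transport. Without control replicate 3 edgeR called 2 of the 21 genes, and without transport replicate 2 it called 0. The 4 genes of this list with the smallest p were matrix-degrading enzymes, 2 annotated as matrix metalloproteinase-9-like and 2 as collagenase 3-like. LOC113656210, a metalloproteinase-9-like gene, rose from 15.9 ± 3.33 to 106 ± 34.5 FPKM and LOC113650399, a collagenase 3-like gene, from 23.7 ± 4.52 to 104 ± 35.8 FPKM. Their calls were lost without transport replicate 2 (edgeR adjusted p = 0.0684 and 0.0924), and that of LOC113650399 also without control replicate 3 (0.0519).

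Marker genes of other cells are given as lists, with the edgeR calls of each. Over all tested genes, 6.69% were called and 25% had an unadjusted edgeR p under 0.05. None of 15 T cell markers was called by edgeR, DESeq2 or limma, 1 had an unadjusted edgeR p under 0.05, and their summed level ranged from 253.82 to 447.6 FPKM in the controls and from 282.63 to 460.89 FPKM after transport. Of 18 tested B cell markers 5 fell and none rose (27.8% called), 11 had a negative log2 fold change and the median was -0.19. Their sum went from between 79.15 and 94.01 FPKM to between 59.84 and 64 FPKM. The list includes genes annotated as B-cell receptor CD22-like. Without these, a narrower match tried after the values had been seen, 5 of 9 fell (55.6% called), all 9 values were negative and the median was -1.15. Of 6 mast cell and eosinophil markers 2 fell, kit and the eosinophil peroxidase-like gene LOC113661326. The sum went from between 61.22 and 70.23 FPKM to between 26.54 and 38.49 FPKM. Most of it was LOC113661326, whose mean went from 51.76 to 22.15 FPKM. In the other direction, the low-level gene hdc was higher at an unadjusted edgeR p under 0.05, though not called (log2 fold change 2.33, SE 0.93). The mast cell tryptase-like gene LOC113638149 hardly differed (log2 fold change 0.037, SE 0.455). Of 19 macrophage and neutrophil markers 1 rose and 1 fell, with sums from 642.04 to 822.31 FPKM and from 573.54 to 684.88 FPKM. At an unadjusted edgeR p under 0.05, 6 were lower and 3 higher, or 31.6% and 15.8% against 12.7% and 12.3% of all tested genes. The lower ones were the complement C1q subunit A, B and C genes, csf1r, the csf1r-like LOC113650173 and the called macrophage-expressed gene LOC113656273. The higher ones were the called lyz, ncf1 and the cytochrome b-245 heavy chain gene. Of 21 gill epithelium and ionocyte markers 1 rose and 4 fell (23.8% called), with sums from 4416 to 6403.77 FPKM and from 4875.78 to 4947.05 FPKM. In this list 10 log2 fold changes were positive and 11 negative (median -0.05). At an unadjusted edgeR p under 0.05, 4 were higher and 5 lower, or 19% and 23.8% against 12.3% and 12.7% of all tested genes. None of 17 erythrocyte or 32 skeletal muscle markers was called by edgeR or limma, 3 and 1 were called by DESeq2, and 4 and 2 had an unadjusted edgeR p under 0.05. Without control replicate 2, edgeR called 4 of 18 erythrocyte markers. Of the matched genes, 6 of the muscle list and 1 of the B cell list, a CD22-like gene, were at 0 in all libraries, and none of the other lists. Without transport replicate 2 edgeR called no gene of any list, and without transport replicate 1, transport replicate 3 or control replicate 3 it called between 0 and 3 genes of each marker list. The part of these marker levels in the lower receptor levels was not tested.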

How the data were processed

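RNA-seq of 6 gill libraries was analysed, 3 per group, grouped by the sample titles. Per the file headers, the authors deposited a count and an FPKM for each of 25792 genes and library, with scaffold coordinates and product names. HISAT and StringTie are the tools in the submitters' processing notes, with no version. Genome build and strandedness are not given in the sources used here. Although whole, the authors' count values were handled as estimated counts, because 4 was far more frequent than its neighbours (427 genes at 4, 113 at 3 and 81 at 5 in control replicate 1). If 1 fragment adds about 4, counting error is larger than the totals imply.

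The 2 groups were compared in edgeR 4.0.16, run in R 4.3.3: filterByExpr (minimum count 10, minimum total 15), TMM scaling and a quasi-likelihood F test (two-sided, no covariates), with Benjamini-Hochberg adjustment over the 20771 genes kept. The SE is the size of the log2 fold change over the square root of F. The steps were also run on counts simulated in the deposited units. That run cannot show what units of about 4 per fragment would change. Alternatives were DESeq2 1.42.0, limma 3.58.1 on log2(FPKM + 1) and log2(FPKM + 0.1), other scaling and filters, counts divided by 4, each library left out, and the replicate number as a block. Interleukin genes and gene lists were chosen with earlier results of these data known. Family and subunit groupings, the count of receptor chains at an unadjusted p and a B cell list without CD22-like genes were added after values had been seen. Named interleukin genes were the called ones, those at an unadjusted p under 0.05 with a mean of at least 1 FPKM, the most abundant and the largest changes of each class. From the signalling, target gene, macrophage and neutrophil, and mast cell and eosinophil lists, called genes with small p are named. The T cell, B cell, gill epithelium and ionocyte, erythrocyte and skeletal muscle lists are described without naming single genes. The other interleukin genes are given to account for every member. Further genes are named from the macrophage and neutrophil list and the mast cell and eosinophil list, which moved in both directions. A second SOCS3-like gene is named beside the called one. No sequences were used here. The values of 1 called gene of the signalling lists are not reported here.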

Additional observations from a re-analysis of the deposited data

How the results depend on the processing

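The 7 called interleukin genes kept their call under RLE size factors, DESeq2, both limma fits, no filter on counts, a minimum mean of 1 FPKM and counts divided by 4, and kept their sign in all 14 alternatives. DESeq2 called 3336 genes and 16 interleukin genes. Leaving out 1 library gave between 3 and 1498 called genes and between 0 and 9 called interleukin genes, lowest without transport replicate 2. The labels do not say if the replicate numbers pair the samples. Deviations of same-numbered libraries from their group means correlated at -0.07, -0.03 and -0.04. These values showed no pairing, but with 3 libraries per group they cannot exclude it. With the replicate block, edgeR called 14 genes and 0 interleukin genes, with adjusted p from 0.0661 to 0.119 for the 7. In that fit 18 of 64 interleukin genes had an unadjusted edgeR p under 0.05, against 4250 of all 20771 genes. No library correlated best with its own number. DESeq2 also called 10 in place of 3 JAK, STAT and SOCS genes, 3 in place of 1 interleukin-1 receptor and NF-kB signalling genes and 7 in place of 2 macrophage and neutrophil markers. The called receptor chains, 3 of 40 in the main test (all genes: 1389 of 20771), numbered 12 of 40 by DESeq2 (3336 of 20771). With a minimum mean of 1 FPKM they were 6 of 35 (all genes: 1604 of 16137). With counts divided by 4 they were 5 of 37 (all genes: 1675 of 18250). They numbered between 0 and 6 with 1 library left out and 0 with the replicate block, fits whose calls over all genes are given above.

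Sign changes were limited to genes that were not called. Over the leave-one-out fits the log2 fold change ranged across 0 for LOC113638537 (-0.040 to 0.57), LOC113649170 (-0.27 to 0.43), irak1 (-0.083 to 0.19), irak1bp1 (-0.033 to 0.94), il1rapl1 (-0.61 to 0.47), LOC113658617 (-0.40 to 0.41), il7r (-0.12 to 0.057), LOC113639661 (-0.18 to 0.035), LOC113653647 (-0.13 to 0.52), nfil3 (-0.33 to 0.060), LOC113639613 (-0.48 to 0.055), LOC113656128 (-0.044 to 0.23), LOC113648674 (-0.19 to 0.10), LOC113648765 (-0.36 to 0.23), LOC113661750 (-0.039 to 0.16) and LOC113656249 (-0.069 to 0.0010). With the block, il1rapl1 was at 0.58. The causes were not tested. Library number, 3 per group, and the units of about 4 per fragment limit what genes under 1 FPKM can show.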

Other observations

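The library values of 2 interleukin receptor genes split without following the groups. The interleukin-10 receptor beta-like gene LOC113639432, at the start of scaffold NW_020848317.1, stood at 11.95, 1.06 and 2.04 FPKM in the controls and at 1.84, 11.05 and 10.63 FPKM after transport. Control replicate 1 and transport replicates 2 and 3 were thus high and the other 3 libraries low, with no value in between. These high libraries were also the 3 with the most skeletal muscle marker RNA, at 2359.31, 1346.95 and 2248.63 FPKM against 319.44 to 449.62 FPKM, and whether the values are linked was not tested. The interleukin-20 receptor alpha-like gene LOC113658617 was highest in control replicate 2 and transport replicate 3, at 11.42 and 11.68 FPKM, and between 5.01 and 6.72 FPKM in the other 4.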
